A study of Homo sapiens with 6 samples.

Results

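CCL2, CCL20, CXCL1, CXCL2, CXCL3, CXCL8, CXCL16 and CX3CL1 are 8 chemokine genes among the 60664 genes of an RNA-seq table from SW480 cells, an established line of human colorectal adenocarcinoma. They were chosen by their names and with the contrast between treated and control cells already known, so that contrast is given for them as a description, with no p-value of their own. Although the set can be thought of as CCL2 and CXC chemokines, CCL20 is a further CC chemokine and CX3CL1 is the sole CX3C chemokine. All 8 were listed above 1 TPM in each of the 6 libraries. TPM divides the reads of a gene by the length of its transcripts, and then by the library total of such values. Levels of different genes can thus be compared, within the limits given below.

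The study had 1 comparison. Control cells received buffer (3 libraries) and treated cells received Amuc_0904 (3 libraries). Both groups were SW480 with the genotype WT and differed, as labelled, in the treatment alone. Amuc_0904 looks like a gene identifier of the gut bacterium Akkermansia muciniphila, but the labels do not say what was added, at which dose or for how long. SW480 is a single cancer cell line grown without the leukocytes that chemokines act on. The labels do not say whether the replicates were separate cultures, so p-values measure only the spread between these libraries, which may be technical. In such bulk RNA a change in the number of cells that express a gene and a change in RNA per cell cannot be told apart.

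Chemokines are small secreted proteins that attract leukocytes along a gradient, and their families are named for the spacing of the first cysteines. CCL2 attracts monocytes through the receptor CCR2, and CCL20 attracts CCR6-bearing dendritic cells and lymphocytes. CXCL1, CXCL2, CXCL3 and CXCL8 carry the residues glutamate, leucine and arginine (ELR) before the first cysteine and attract neutrophils through CXCR2, and CXCL8 also through CXCR1. CXCL16 and CX3CL1 are made as transmembrane proteins, bind CXCR6 and CX3CR1, and are released from the cell surface by the proteases ADAM10 and ADAM17. Transcription of CCL2, CCL20 and the ELR genes in epithelial cells is classically driven by NF-kB.

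The sequence upstream of 5 of the 8 genes was matched in RefSeq's table for GRCh38.p14. These stretches are shown because those of 3 ELR genes are near copies of each other. Each line holds the 150 bases before the RefSeq start of transcription, read 5′ to 3′ on the strand of the gene. GENCODE, the source of the gene positions given below, can place the start elsewhere. By its positions the CXCL2, CXCL3 and CXCL8 windows lie partly inside the gene and the CCL20 window wholly. Capitals mark matches, on either strand, of GGNNTTTCC (a form of the NF-kB site), TGANTCA (the AP-1 site) and TATAAA (the TATA box). No match overlapped another. CCL2, CXCL16 and CX3CL1 were not matched.
CXCL1: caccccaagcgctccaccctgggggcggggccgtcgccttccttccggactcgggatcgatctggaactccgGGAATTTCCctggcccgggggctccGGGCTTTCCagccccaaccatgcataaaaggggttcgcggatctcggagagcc
CXCL2: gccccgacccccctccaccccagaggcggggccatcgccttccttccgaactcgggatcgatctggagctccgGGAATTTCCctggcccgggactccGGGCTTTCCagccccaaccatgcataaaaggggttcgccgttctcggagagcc
CXCL3: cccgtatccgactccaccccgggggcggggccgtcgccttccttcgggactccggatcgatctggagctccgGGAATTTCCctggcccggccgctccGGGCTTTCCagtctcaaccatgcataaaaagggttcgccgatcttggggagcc
CXCL8: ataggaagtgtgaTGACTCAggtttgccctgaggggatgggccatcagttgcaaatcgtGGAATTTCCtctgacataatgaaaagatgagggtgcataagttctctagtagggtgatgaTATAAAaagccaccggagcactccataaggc
CCL20: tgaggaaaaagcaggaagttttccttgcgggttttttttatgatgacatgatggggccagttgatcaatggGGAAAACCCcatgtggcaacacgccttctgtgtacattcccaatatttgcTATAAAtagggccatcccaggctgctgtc

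The windows lie at chr4:73869243-73869392 (CXCL1, plus strand), chr4:74099196-74099345 (CXCL2, minus strand), chr4:74038690-74038839 (CXCL3, minus strand), chr4:73740419-73740568 (CXCL8, plus strand) and chr2:227813692-227813841 (CCL20, plus strand). CXCL1, CXCL2 and CXCL3 are near copies of each other here, with 88.7% identity between CXCL1 and CXCL2, 86.0% between CXCL1 and CXCL3 and 86.1% between CXCL2 and CXCL3. CXCL8 shared 36.2% to 40.5% of aligned bases with these 3 genes, although it lies in the same cluster and belongs to the same ELR group. CCL20, on another chromosome, shared 38.2% to 42.8% with them, so the CXCL8 values show no likeness beyond that. All 5 windows held GGNNTTTCC, which was found in 3.46% of the 35114 RefSeq promoter windows of the same length. This comparison is no test, because these genes are classical NF-kB targets and 3 of the windows are near copies. CXCL1, CXCL2 and CXCL3 each held 2 matches, GGAATTTCC followed by GGGCTTTCC, and 34 promoters of the table (0.0968%) held 2 or more. In CXCL1 and CXCL3 the first match began 78 bases before the start and in CXCL2 77 bases before it, while the second began 53 bases before it in all 3. CXCL8 had 1 match, GGAATTTCC, 91 bases before its start. CCL20 had its match on the other strand, where it reads GGGTTTTCC. TGANTCA was present in CXCL8 alone of the 5, as TGACTCA 137 bases before the start, and in 4.17% of all windows. TATAAA was present in CXCL8 and CCL20 and in 6.71% of all windows. These matches describe the letters of the reference and are not evidence of binding. Whether they bear on the levels of the genes in these libraries was not tested.

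CCL2 was the most abundant of the 8 genes and differed most between the groups. The gene (ENSG00000108691) lies on the plus strand of chromosome 17 at 34255218 to 34257203 in GRCh38 and has 3 exons. It was listed at 67.7, 60.7 and 62.0 TPM in buffer replicates 1, 2 and 3 and at 168, 165 and 158 TPM in Amuc_0904 replicates 1, 2 and 3. The treated libraries lay far above the buffer libraries, with little spread within either group. The mean was 63.5 ± 3.72 TPM in buffer and 163 ± 5.22 TPM in treated cells (SD, n = 3 each), a 2.57-fold higher level. On the log2(TPM + 1) scale the difference was 1.35 with a standard error (SE) of 0.06. CCL2 stood above 85.4% of the tested genes in buffer and above 94.5% of them in treated cells.

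Of the ELR genes, which encode neutrophil attractants, CXCL1 was the most abundant. CXCL1 (ENSG00000163739, chromosome 4, 73869393 to 73871242, plus strand) was listed at 8.61, 8.38 and 8.12 TPM in the buffer libraries and at 13.1, 11.9 and 12.7 TPM in the treated libraries. The groups did not overlap. The means were 8.37 ± 0.245 and 12.6 ± 0.590 TPM (SD, n = 3 each), 1.5-fold higher in treated cells, and the log2 difference was 0.53 (SE 0.09).

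CXCL2 (ENSG00000081041, chromosome 4, 74097035 to 74099293, minus strand) was listed at 5.98, 5.04 and 4.24 TPM in buffer and at 7.07, 7.86 and 8.54 TPM after Amuc_0904. The lowest treated library was above the highest buffer library, but the spread within each group was wider than for CXCL1. Its mean was 5.09 ± 0.871 TPM in buffer and 7.82 ± 0.736 TPM in treated cells (SD, n = 3 each), 1.54-fold higher, with a log2 difference of 0.54 (SE 0.13).

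CXCL3 (ENSG00000163734, chromosome 4, 74036589 to 74038807, minus strand) was the ELR gene with the smallest difference. Its TPM was 4.63, 4.49 and 4.38 in buffer and 6.17, 5.65 and 6.40 in treated libraries. Again every treated library was above every buffer library. The means of 4.50 ± 0.125 and 6.07 ± 0.384 TPM (SD, n = 3 each) gave a 1.35-fold higher level and a log2 difference of 0.36 (SE 0.10).

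CXCL8, which encodes interleukin-8, was the least abundant ELR gene in both groups and had the largest fold of the 4. CXCL8 (ENSG00000169429, chromosome 4, 73740506 to 73743716, plus strand) was listed at 2.98, 1.83 and 2.32 TPM in buffer and at 4.18, 3.93 and 4.91 TPM in treated libraries. The groups did not overlap, and the buffer libraries were uneven. The mean was 2.38 ± 0.577 TPM in buffer and 4.34 ± 0.509 TPM in treated cells (SD, n = 3 each), 1.83-fold higher. The log2 difference of 0.67 (SE 0.16) understates this fold, because adding 1 to TPM shrinks differences at low TPM.

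The other 3 genes were not higher in treated cells as a group. CCL20 (ENSG00000115009, chromosome 2, 227805739 to 227817564, plus strand) was listed at 2.63, 1.71 and 1.64 TPM in buffer and at 1.16, 1.79 and 2.59 TPM in treated libraries. The groups overlapped widely, and the highest treated library almost reached the highest buffer library. The means were 1.99 ± 0.552 and 1.85 ± 0.717 TPM (SD, n = 3 each). The log2 difference was -0.09 (SE 0.22), and it took either sign when libraries were left out one at a time, from -0.27 without Amuc_0904 replicate 3 to 0.10 without Amuc_0904 replicate 1. CCL20 thus had no direction that stood out from the spread between libraries.

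CXCL16, a membrane-bound chemokine, was the second most abundant of the 8 genes. CXCL16 (ENSG00000161921, chromosome 17, 4733526 to 4739922, minus strand) was listed at 27.4, 33.0 and 26.0 TPM in buffer and at 31.6, 29.1 and 25.7 TPM in treated libraries. The ranges overlapped, and both means were 28.8 TPM, with an SD of 3.70 in buffer and 2.95 in treated cells (n = 3 each). The log2 difference was 0.00 (SE 0.11), and 0.13 with the GC trend of each library removed. CXCL16 overlaps MED11 on the other strand, and because the strand protocol is not given, its TPM may include reads of that gene.

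CX3CL1, the other membrane-bound member, was the only one of the 8 whose treated libraries were all below the buffer libraries. The same held for 20.1% of all tested genes. CX3CL1 (ENSG00000006210, chromosome 16, 57372458 to 57385048, plus strand) was listed at 2.01, 1.92 and 1.80 TPM in buffer and at 1.75, 1.59 and 1.53 TPM in treated libraries. The gap between the groups, from 1.80 to 1.75 TPM, was narrow. The means were 1.91 ± 0.105 and 1.62 ± 0.114 TPM (SD, n = 3 each), 1.18-fold higher in buffer, with a log2 difference of -0.15 (SE 0.13). That difference was -0.07 when each library was centred on its median and -0.03 when each library's trend with GC content was removed.

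**Figure D1:**
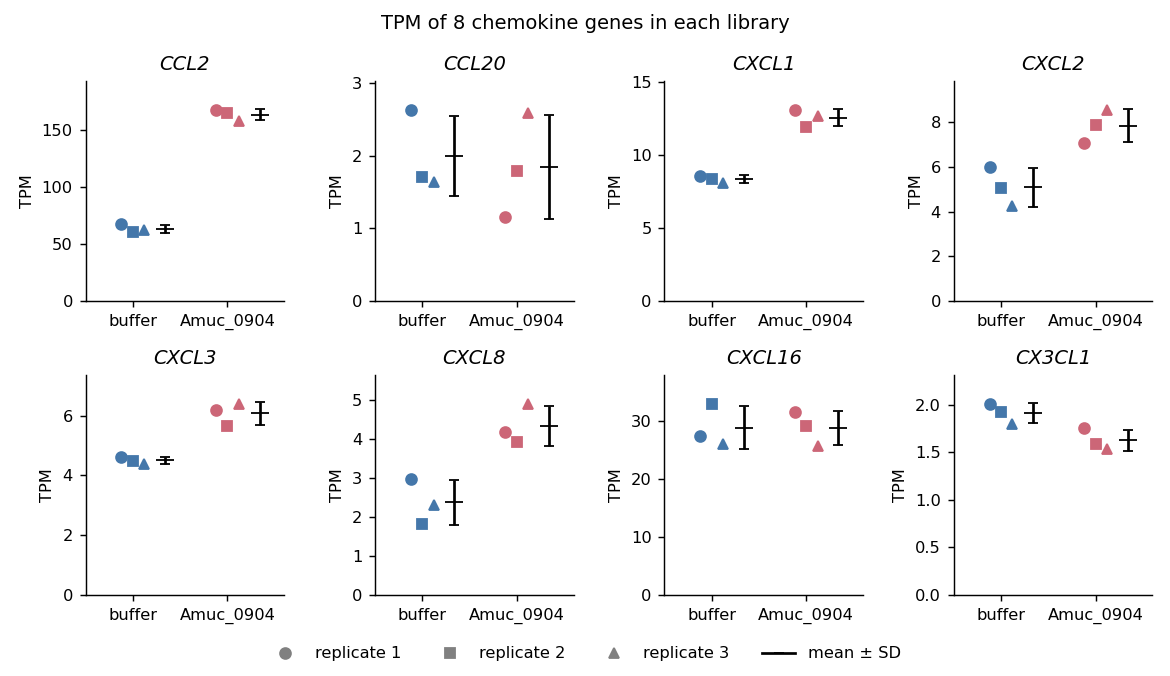
TPM of each of the 8 chemokine genes (vertical axes, linear and starting at 0) in buffer and Amuc_0904 libraries; symbols are replicates 1 to 3, and the bars are the mean ± SD of 3 libraries. CCL2, CXCL1, CXCL2, CXCL3 and CXCL8 have no treated library within the buffer range, CCL20 and CXCL16 overlap, and CX3CL1 is lower in all 3 treated libraries. Over all tested genes, 7.00% had every treated library above the buffer libraries and 20.1% had every one below.

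All 8 genes passed the filter on low values (3 or more libraries at 1 TPM or higher), as did 14421 genes in all. In a limma fit over those genes, with Benjamini-Hochberg adjustment and a threshold of 0.05, 2 of the 8 were past the threshold, CCL2 and CXCL1, both higher. Over all tested genes 1.37% were past it, 0.368% higher and 0.999% lower. Treated libraries lay entirely above buffer libraries for 5 of the 8 genes, against 7.00% of all tested genes, and entirely below for 1 of the 8, against 20.1%. Because this contrast was known when the genes were chosen, nothing is read from these counts. The median log2 difference was 0.45 over the 8 genes and -0.06 over all tested genes. Of the 197 genes past the threshold 73.1% were lower in treated cells. That share depended on scaling, at 49.4% with libraries centred on their medians, 54.9% after quantile normalization and 34.2% with the GC trend removed. CCL2 and the ELR genes kept their sign under these scalings. Their log2 differences were 1.43 (CCL2), 0.61 (CXCL1), 0.62 (CXCL2), 0.44 (CXCL3) and 0.75 (CXCL8) after centring. With the GC trend removed they were 1.34, 0.55, 0.57, 0.44 and 0.60 in the same order.

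**Figure D2:**
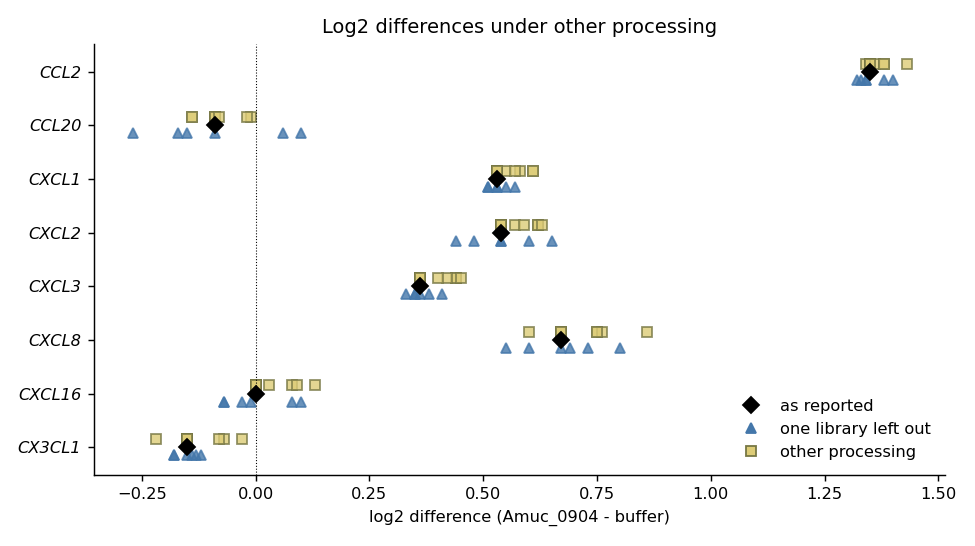
Log2 difference of each chemokine gene (horizontal axis, Amuc_0904 minus buffer) as reported (diamonds), with 1 library left out (triangles) and under the other processing choices (squares). CCL2 and the 4 ELR genes are above 0 in every case drawn, CCL20 lies on both sides of 0 with libraries left out, and CXCL16 lies between -0.07 and 0.13.

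CXCL1, CXCL2 and CXCL3 have nearly identical coding sequences, so reads may have been divided among them during quantification. Over the coding sequence CXCL1 shared 93.5% of aligned bases with CXCL2 and 90.7% with CXCL3, and CXCL2 shared 94.4% with CXCL3, while CXCL8 shared 47.6% to 50.6% with them. The single values of these 3 genes are therefore less certain than their sum. Their sum was 19.2, 17.9 and 16.7 TPM in buffer libraries and 26.4, 25.5 and 27.6 TPM in treated libraries. The treated sums were all higher, with means of 18.0 ± 1.24 and 26.5 ± 1.08 TPM (SD, n = 3 each), or 1.47-fold. With CXCL8 added, the sum of the ELR genes was 22.2, 19.7 and 19.1 TPM in buffer and 30.5, 29.4 and 32.5 TPM in treated libraries. That sum averaged 20.3 ± 1.65 TPM in buffer and 30.8 ± 1.58 TPM in treated cells, 1.52-fold higher.

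Within the ELR sum the make-up hardly differed between the groups. CXCL1 made up 41.3% ± 2.16 of it in buffer and 40.8% ± 2.01 in treated cells, and CXCL2 24.9% ± 2.41 and 25.4% ± 1.95 (SD, n = 3 each). The share of CXCL3 was 22.2% ± 1.16 in buffer and 19.7% ± 0.490 in treated cells, with no overlap between the groups. CXCL8 made up 11.6% ± 2.13 and 14.1% ± 0.920, and there the lowest treated and highest buffer libraries were both at 13.4%.

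The 8 genes together stood at 122, 117 and 111 TPM in buffer and at 233, 227 and 220 TPM in treated libraries. Most of the difference between these sums was CCL2. CCL2 made up 55.5%, 51.8% and 56.1% of the sum in buffer libraries and 72.0%, 72.8% and 71.6% in treated libraries. The share of CXCL16 was 24.7% ± 3.05 in buffer and 12.7% ± 0.948 in treated cells (SD, n = 3 each), although its own level was the same in both groups. In buffer the transcripts of these 8 genes were thus mainly those of a monocyte attractant and a membrane-bound chemokine, and the attractant predominated after Amuc_0904.

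**Figure D3:**
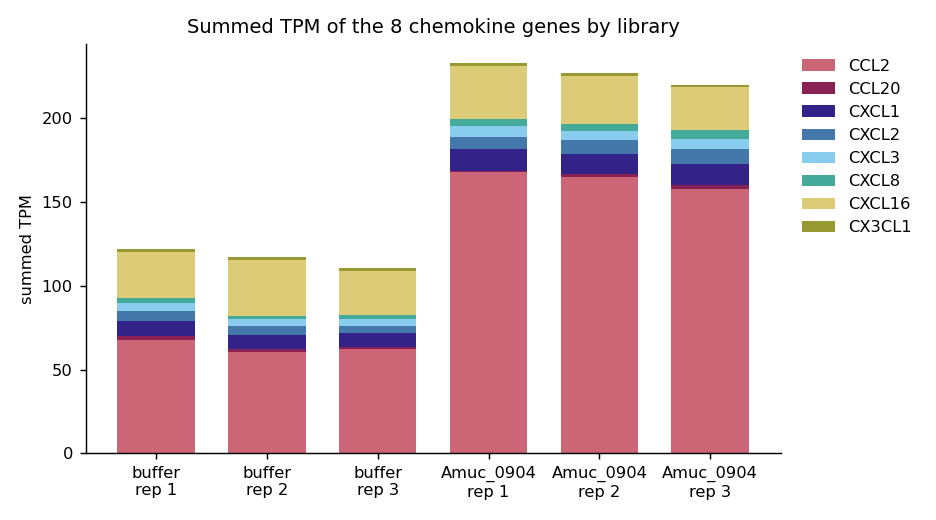
Summed TPM of the 8 chemokine genes in each library (bars start at 0), divided by gene. The sums are 111 to 122 TPM in buffer and 220 to 233 TPM in Amuc_0904 libraries, and the CCL2 segment is the one that is visibly larger.

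The order of mean levels was the same in both groups: CCL2, CXCL16, CXCL1, CXCL2, CXCL3, CXCL8, CCL20 and CX3CL1. In buffer, neighbours in that order whose libraries overlapped were CXCL2 and CXCL3, CXCL8 and CCL20, and CCL20 and CX3CL1. In treated cells only CCL20 and CX3CL1 overlapped. Among all tested genes the ELR genes stood in the lower and middle ranks. CXCL1 was above 40.4% of tested genes in buffer and 51.9% in treated cells, CXCL2 above 28.8% and 40.1%, CXCL3 above 26.4% and 34.3%, and CXCL8 above 14.7% and 27.3%. CXCL16 was above 70.8% and 72.0%, CCL20 above 11.7% in both groups, and CX3CL1 above 11.1% and 9.60%.

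The 8 genes lie in 5 places in the genome, and 3 of these are chemokine clusters. CCL2 is in the CC cluster of chromosome 17, next to CCL7 and CCL11, which encode attractants of monocytes and eosinophils. CCL7, whose start is 15 kb from that of CCL2, was listed at 1.30, 0.62 and 0.96 TPM in buffer and at 4.72, 6.56 and 3.83 TPM in treated libraries. All 3 treated libraries were above all 3 buffer libraries, and the means were 0.960 ± 0.340 and 5.04 ± 1.39 TPM (SD, n = 3 each), 5.25-fold higher. Its log2 difference was 1.61 (SE 0.20). CCL7 passed the filter on low values only through its treated libraries, so the filter itself favoured a higher treated level. The limma adjusted p was 0.013 with that filter, 0.11 with no filter, and 0.060 with the filter but without buffer replicate 2. CCL11, 30.4 kb from CCL2, was listed at 0.68, 0.06 and 0.20 TPM in buffer and at 1.16, 1.05 and 1.13 TPM in treated libraries. Its log2 difference of 0.71 (SE 0.21) did not pass the test (limma adjusted p = 0.11), and it too entered the test only through the treated libraries. CCL8, CCL13 and CCL1 of the same cluster were listed at 0 in every library. CCL2 shared 79.3% of aligned coding bases with CCL7 and 78.0% with CCL11.

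CXCL8, CXCL1, CXCL3 and CXCL2 lie in the CXC cluster of chromosome 4, whose other chemokine genes were listed at low TPM or at 0. CXCL5 averaged 0.0633 ± 0.0153 TPM with buffer and 0.160 ± 0.0624 TPM with Amuc_0904, and CXCL6 averaged 0.770 ± 0.0693 and 0.613 ± 0.0839 TPM (SD, n = 3 each), both below the filter. PF4 and PF4V1, platelet factor genes of this cluster, were listed at 0 throughout. The tested genes at its edges had log2 differences of 0.13 (MTHFD2L) and 0.04 (ANKRD17). Counted over all protein-coding genes within 500 kb of any of the 8, 44 of 96 were tested and CCL7 alone was past the adjusted threshold. None was past it with no filter, and with a filter at 5 TPM, which leaves CCL7 out, it was MINK1, at a log2 difference of -0.34 (limma adjusted p = 0.048). At an unadjusted p under 0.05 in the limma fit, 2 of the 44 were higher and 7 lower. The 2 higher genes were CCL7 and CCL11, which entered the test only through their treated libraries. Over all tested genes 4.49% were higher and 16.3% lower at that unadjusted threshold, and the unadjusted counts below are to be read against these shares.

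The third cluster, on chromosome 16, holds CX3CL1 between CCL22 and CCL17, which encode attractants of T cells that bear CCR4. The start of CCL22 is 13.7 kb from that of CX3CL1, and that of CCL17 is 32.3 kb away. CCL22 was listed at no more than 0.04 TPM in any library and CCL17 at 0 in all, so CX3CL1 was the only chemokine gene of this cluster that could be tested.

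**Figure D4:**
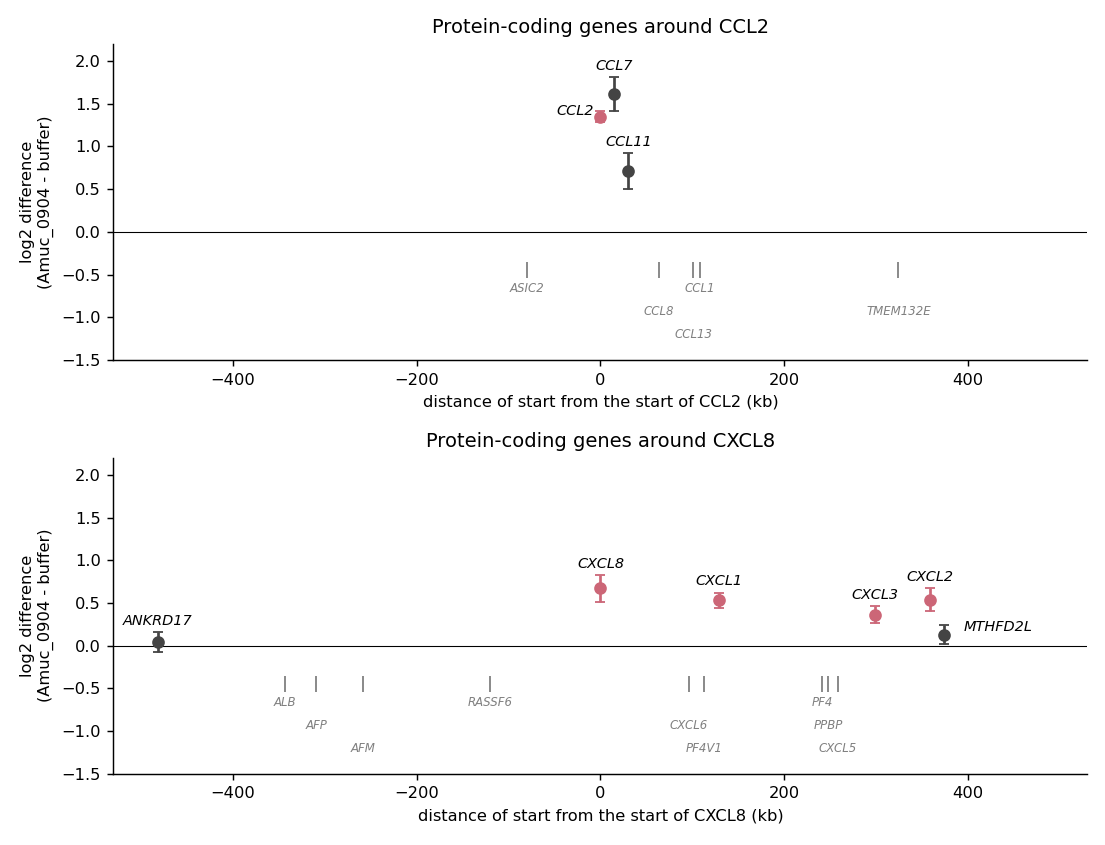
Log2 difference (vertical axis, Amuc_0904 minus buffer, with bars of 1 SE) of protein-coding genes by the distance of their start from that of CCL2 (upper panel) and CXCL8 (lower panel) in kb. Red points are chemokine genes of the set, dark points other tested genes, and grey ticks genes below the filter; CCL7 and CCL11 next to CCL2 are above 0, and the genes flanking the CXC cluster are near it.

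Of 40 other chemokine ligands, 38 were in the table, 20 of these were listed at 0 in every library and 4 could be tested. CCL7 was past the threshold and the other 3 were not. The median log2 difference of the 4 was 0.37, but CCL7 and CCL11 entered only through their treated libraries. With no filter the median was -0.03 over 18 ligands and none was past the threshold. Besides CCL11, a ligand not past it was CCL28, a mucosal chemokine, with means of 3.83 ± 0.662 TPM (buffer) and 3.88 ± 0.193 TPM (Amuc_0904) (limma adjusted p = 0.94). The last was CXCL14, an epithelial chemokine, at 25.3 ± 2.12 and 20.5 ± 1.70 TPM (SD, n = 3 each, log2 difference -0.29, limma adjusted p = 0.14). CXCL9, CXCL10 and CXCL12 were listed at 0.

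Most receptors that bind the 8 chemokines were listed at or near 0 in these cells. CCR2, the receptor of CCL2, was listed at 0 in 5 libraries and at 0.01 TPM in 1. CXCR1 and CXCR2, the receptors of the ELR chemokines, had means of 0.0300 and 0.0867 TPM in buffer and 0.0300 and 0.123 TPM in treated cells. CCR6, the CCL20 receptor, averaged 0.0167 and 0.0133 TPM, and CX3CR1 was above 0 in 1 library. CXCR6, the receptor of CXCL16, was the exception. It was listed at 2.0, 1.75 and 1.45 TPM in buffer and at 2.42, 2.25 and 2.70 TPM in treated libraries, which did not overlap, but the log2 difference of 0.34 did not pass (limma adjusted p = 0.22). Of 23 receptor genes 4 were tested and none passed in limma. At an unadjusted p under 0.05, 1 was higher and 1 lower. The most abundant were CXCR4, at 37.8 ± 3.46 and 42.0 ± 2.66 TPM, CCR7, at 23.7 ± 1.95 and 19.5 ± 1.17 TPM, and CCR3, which overlaps CCR1 on the other strand, at 9.56 ± 2.04 and 9.90 ± 0.792 TPM (SD, n = 3 each).

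Proteases that release or trim chemokines were tested for 17 of 30 genes, of which 1 rose and 1 fell. CTSS, a cysteine cathepsin, rose from 12.7 ± 0.254 to 25.7 ± 1.45 TPM (log2 difference 0.96, limma adjusted p = 0.0026). CTSD, an aspartic cathepsin, fell from 218 ± 12.3 to 171 ± 8.99 TPM (log2 difference -0.35, limma adjusted p = 0.048), a call that was lost with any library left out, at adjusted p of 0.079 to 0.17. With the GC trend removed its log2 difference was -0.14 (limma adjusted p = 0.18). ADAM10, which sheds CXCL16 and CX3CL1, stood at 34.2 ± 6.58 and 30.5 ± 4.88 TPM, and ADAM17 at 15.8 ± 0.959 and 14.8 ± 0.950 TPM (SD, n = 3 each). Neither passed, with limma adjusted p of 0.63 and 0.61. Of the 17 genes 4 were higher (CTSB, CTSS, MMP9 and PLAT) and 2 lower (CTSD and RHBDF1) at an unadjusted p under 0.05. MMP9 entered the test only through its treated libraries.

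Among 30 tested transcription factors and inhibitors that act on chemokine genes, 2 rose, 1 fell and the median log2 difference was 0.00. NFKBIA, which encodes the inhibitor IkB-alpha and is itself an NF-kB target, rose from 32.1 ± 2.07 to 46.4 ± 1.86 TPM (log2 difference 0.52, limma adjusted p = 0.021). This call was lost in 4 of 6 fits with 1 library left out, at adjusted p of 0.059 to 0.089, and kept without Amuc_0904 replicate 3 or without buffer replicate 1. NFKB2, an NF-kB subunit, rose from 20.1 ± 1.44 to 27.1 ± 0.717 TPM (limma adjusted p = 0.047, and 0.060 to 0.17 with 1 library left out). CEBPB, a bZIP factor that acts on the CXCL8 gene, fell from 25.8 ± 1.69 to 15.3 ± 3.02 TPM (log2 difference -0.73, limma adjusted p = 0.048). With 1 library left out it passed only without Amuc_0904 replicate 3, and with the GC trend removed its log2 difference was -0.49 (limma adjusted p = 0.13). RELA, which encodes the p65 subunit and was picked after its values were seen, was at 60.7 ± 3.33 and 48.9 ± 1.44 TPM (SD, n = 3 each, limma adjusted p = 0.063). With a filter at 5 TPM RELA had an adjusted p of 0.044, and with the GC trend removed 0.21. RELB, another NF-kB subunit picked after its values were seen, was at 14.2 ± 1.12 and 18.4 ± 0.881 TPM (SD, n = 3 each). Its limma adjusted p was 0.083, and 0.013 with the GC trend removed. In the whole list 6 genes were higher and 8 lower at an unadjusted p under 0.05 in limma.

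A list of 17 genes that act on mRNA stability held decay factors, the stabiliser ELAVL1 and the signalling genes MAPK14, MAPKAPK2 and DUSP1. None passed in limma, while at an unadjusted p under 0.05 ZC3H12A was higher and N4BP1, ZFP36L2, KHSRP and ELAVL1 were lower. By abundance the list was led by HNRNPD, KHSRP and ZFP36L1, with log2 differences of -0.10, -0.22 and -0.11. ZC3H12A, an RNase that degrades cytokine mRNAs and a gene picked after its values were seen, had means of 9.75 ± 1.39 TPM with buffer and 15.1 ± 1.06 TPM with Amuc_0904 (SD, n = 3 each, log2 difference 0.59, limma adjusted p = 0.051). Its adjusted p was 0.013 with the GC trend removed and 0.031 with a filter at 5 TPM. Of 31 tested inflammatory receptors and kinases, BIRC3, a ubiquitin ligase of TNF receptor complexes, went from 8.03 ± 1.70 TPM up to 16.0 ± 1.22 TPM (limma adjusted p = 0.026), while the other 30 genes did not pass. In this list 3 genes (BIRC3, IRAK2 and TLR3) were higher at an unadjusted p under 0.05, TLR3 having entered the test only through its treated libraries. At that threshold 5 were lower (TNFRSF1A, TNFRSF1B, LTBR, MAP3K14 and TRADD). The call of BIRC3 was kept only without buffer replicate 1 among the fits with 1 library left out, with an adjusted p of up to 0.080 in the rest. A further list held proteoglycans, which retain chemokines at the cell surface, and enzymes that build or trim their heparan sulfate chains. None of its 15 tested genes passed in limma. At an unadjusted p under 0.05 SDC4 was higher, and the proteoglycan genes SDC1, SDC3, GPC1 and AGRN and the enzyme genes NDST2 and HS6ST1 were lower. By abundance CD44 was at 128 ± 3.79 and 129 ± 4.43 TPM, SDC4 at 98.1 ± 5.14 and 122 ± 4.40 TPM, and AGRN at 98.3 ± 12 and 74.8 ± 4.01 TPM (SD, n = 3 each). SDC4 had a limma adjusted p of 0.056, and of 0.041 with the GC trend removed and 0.038 with a filter at 5 TPM, with which SDC1 and AGRN were also past the threshold, at 0.048 each.

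Of 14 tested genes for other cytokines and growth factors 5 rose and none fell in limma, against 0.368% higher and 0.999% lower over all tested genes. Like the other lists, this one was chosen with earlier results of these data known, so its counts are a description. The median log2 difference was 0.24, but 0.06 over 24 genes with no filter and 0.05 over 11 genes with a filter at 5 TPM. At an unadjusted p under 0.05, 6 were higher and 0 lower. IL32 rose from 84.8 ± 4.36 to 199 ± 16.3 TPM (2.34-fold, limma adjusted p = 0.001). CSF2, which encodes the growth factor GM-CSF, rose 2.22-fold, LTB, encoding lymphotoxin beta, 2.09-fold, and EBI3, a subunit of IL-27 and IL-35, 2.42-fold, with limma adjusted p of 0.0061, 0.0069 and 0.013. The call of EBI3 was lost without buffer replicate 2 (limma adjusted p = 0.060). The remaining one, IL23A, rose from 7.95 ± 0.572 to 13.9 ± 0.814 TPM (limma adjusted p = 0.014). Its call was lost without Amuc_0904 replicate 1 (limma adjusted p = 0.068), buffer replicate 1 (0.054) or buffer replicate 2 (0.071), and with no filter IL32 alone of the 5 kept its call. Several of these genes overlap another annotated gene and may include its reads: IL32 and, among the genes above, CTSD, CEBPB, CXCL14, KHSRP, HNRNPD, CD44, SDC4 and AGRN. Not every gene in the text was checked for such overlap, and CXCR6 is among those not checked.

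**Figure D5:**
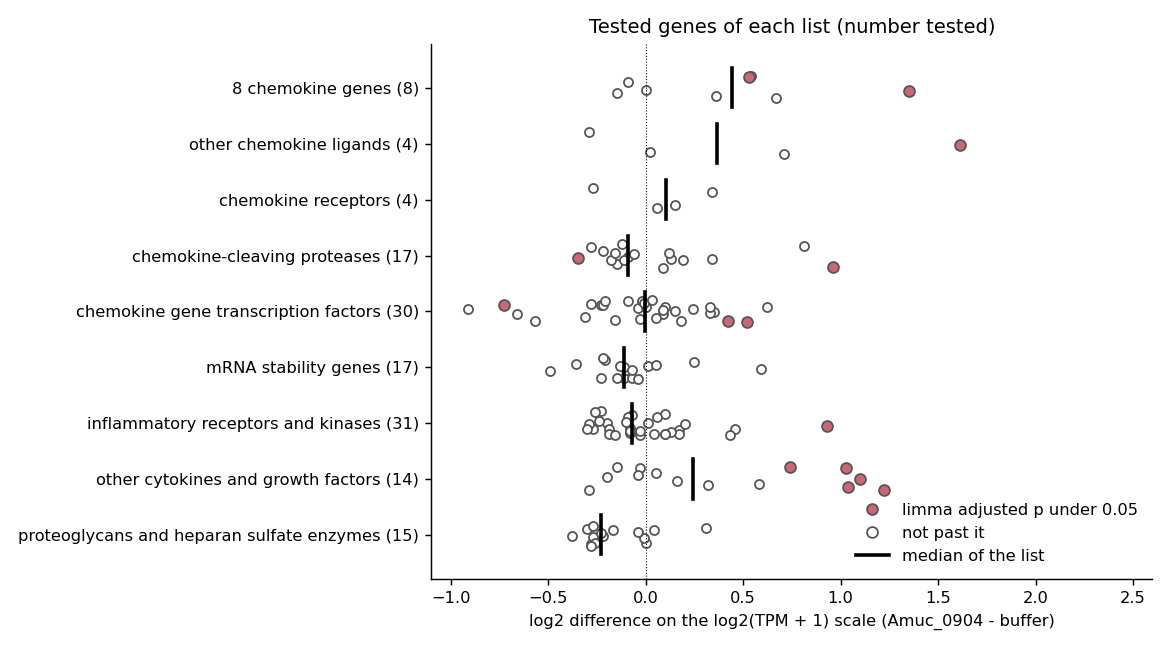
Log2 difference on the log2(TPM + 1) scale (horizontal axis) of every tested gene in the 8 chemokine genes and in 8 lists of related genes, with the number tested in brackets. Filled points were past a limma adjusted p of 0.05 and black bars are list medians; CCL7 is the point farthest to the right, and the cytokine list has 5 filled points, all above 0.

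The genes whose profile over the 6 libraries was most like that of CCL2 were SERPINA1 (Pearson r = 0.998), IL32 (0.997), TRNT1 (0.996), SGPP2 (0.994) and CTSS (0.991), of 9857 genes with a mean of at least 5 TPM. The nearest to the ELR sum were TMEM123 (0.997), ABAT (0.993), THOC7 (0.991), NT5E (0.990) and GULP1 (0.988), of 9855 genes. Within the set CCL2 had r = 0.99 with CXCL1, 0.96 with CXCL3, 0.92 with CXCL8, 0.90 with CXCL2, 0.01 with CXCL16, -0.16 with CCL20 and -0.81 with CX3CL1. These are descriptions over the same 6 libraries in 2 groups, so r mainly reflects the difference between the groups.

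The labelled identity of the cells was checked against markers. Of 12 markers of colorectal epithelium 5 had a mean of at least 1 TPM (EPCAM, KRT8, KRT18, KRT19 and CDX2), and the list summed to between 7900 and 8143 TPM in buffer and between 7088 and 7377 TPM in treated libraries. Most of that sum was keratin, with buffer means of 3484 (KRT8), 2865 (KRT18) and 1439 TPM (KRT19). VIL1, CDX1, CDH17, LGALS4, CEACAM5, GPA33 and KRT20 averaged below 1 TPM in both groups, so the list bears out the label only in part. Of 12 markers of monocytes and macrophages, which make CCL2 and CXCL8 themselves, PTPRC, FCGR3A, CD163, MARCO, TYROBP and AIF1 were listed at 0 in all libraries. The list summed to 3.30 to 3.70 TPM in buffer and 5.59 to 6.68 TPM in treated libraries, mostly CD14 and CD68, a lysosomal protein gene whose mean was 1.42 TPM with buffer and 2.84 TPM with Amuc_0904 (limma adjusted p = 0.077). Of 8 neutrophil markers 6 were at 0 and the sum was at most 0.510 TPM in any library. Of 9 fibroblast markers, which could mark another source of CCL2, DCN and FAP were at 0 and the sum was 2.42 to 4.16 TPM in buffer and 1.74 to 2.30 TPM in treated libraries. The sum of 6 endothelial markers was at most 0.880 TPM, with KDR and EMCN at 0. The 10 lymphocyte markers summed to 87.8 to 94.0 TPM in buffer and 95.2 to 96.8 TPM in treated libraries, nearly all of it TRBC2, with CD2 and MS4A1 at 0. None of the tested markers passed in limma, and at an unadjusted p under 0.05 CD68 was higher and 3 epithelial markers (KRT8, EPCAM and CDX2) were lower. The libraries were alike in breadth, with 14244 to 14586 genes at 1 TPM or more. They differed in their trend with transcript GC content, with log2 slopes per 10 percentage points of 0.005 to 0.093 in buffer and -0.112 to 0.002 in treated libraries. The differences of the chemokine genes with this trend removed are given above, apart from CCL20, at -0.14.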

How the data were processed

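The authors deposited 1 gene table in TPM for the 6 libraries, made with RSEM per the labels. HISAT2, StringTie and edgeR are named without versions or roles, and the mouse build GRCm38.p6 is named although the identifiers are human, per the submitters' processing notes. TPM keeps no read number, so depth is unknown and no counting intervals are given. All 6 value columns were mapped to samples by their labels.

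The 60664 genes were filtered (3 or more libraries at 1 TPM or higher). The log2(TPM + 1) values entered a linear model with a moderated two-sided test and variance trend (limma 3.58.1, R 4.3.3), with Benjamini-Hochberg adjustment and a threshold of 0.05. The script was tested on simulated data. Errors are SDs between libraries unless given as SE, and folds are ratios of mean TPM. The members, lists and rules were chosen with earlier results of these data known. From each list the text names up to 4 called genes of largest change, or up to 3 of the most abundant where none passed. The tested chemokine ligands were all named, as were the 5 genes with the highest correlation to CCL2 and to the ELR sum. Other genes given were chosen after their values were seen, apart from receptors, shedding proteases, cluster neighbours and markers, which follow from their roles. Positions, neighbours within 500 kb, coding sequences and GC content came from GENCODE 29 on GRCh38, and GC content was found for 14277 tested genes (99%). Coding sequences and promoters were aligned globally with Biopython 1.88. Alternatives were a pseudocount of 0.1, other filters, median centring, quantile normalization, removal of the GC trend, ribosomal protein and mitochondrial genes left out, no variance trend, an adjusted p of 0.01, the replicate number as a block and each library left out.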

Additional observations from a re-analysis of the deposited data

How the results depend on the processing

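TPM without read numbers limits these results: the noise of genes at a few TPM, such as CXCL8, CCL20, CX3CL1 and CCL7, cannot be separated into counting error and other spread. CCL2 and the 4 ELR genes were higher in treated cells under every alternative run. Over the values of single genes under alternatives, 467 kept their side of the threshold or their size. Of the rest, 61 were no longer past the threshold, 6 were newly past it and 11 moved in size. Many of the 467 belong to genes with no call to lose in the main fit, such as ADAM10, CD44 and CCR3. The chemokine genes of the set were scored by size alone, so lost calls of CXCL1 are not among the 61. CXCL1 was past the threshold in 6 of 9 refits with all libraries kept and in 0 of 6 with 1 library left out.

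The number of genes past the threshold was 197. It was 117 with the GC trend removed, 432 with TPM of at least 5, 85 median centred, 9 with no filter on low values, 44 with no variance trend, 102 after quantile normalization, 29 at an adjusted p of 0.01 and 33 to 110 with 1 library left out. The lowest counts were 33 without buffer replicate 2, then 49 and 54 without Amuc_0904 replicate 1 or replicate 2, and 63, 83 and 110 without buffer replicate 1, buffer replicate 3 or Amuc_0904 replicate 3. Of the 8 chemokine genes 2 were past it, but 1 with no filter, with no variance trend and with any library left out, where CXCL1 was past it in 0 of 6 fits.

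With no filter the counts were 0 other chemokine ligands, 1 protease, 0 transcription factors, 0 inflammatory receptors and kinases, 1 other cytokine and 0 neighbouring genes. With TPM of at least 5 they were 0 other ligands, 5 transcription factors, 1 mRNA stability gene and 3 proteoglycans, and with the GC trend removed 1 mRNA stability gene and 1 proteoglycan. Removing the GC trend also gave 4 transcription factors and 2 proteases, all higher. RELB, JUNB and MMP9 were newly past the threshold there, and CEBPB and CTSD, both lower in the main fit, no longer were. MMP9 had passed the filter on low values only through its treated libraries. Centring and quantile normalization each left 1 protease and 1 transcription factor. With no variance trend there were 1 protease, 0 transcription factors and 0 inflammatory receptors and kinases, and 1 protease was left with a pseudocount of 0.1 or without ribosomal protein and mitochondrial genes. With 1 library left out the counts were 0 to 1 other ligands, 1 protease, 0 to 3 transcription factors, 0 to 1 inflammatory receptors and kinases, 3 to 5 other cytokines and 0 to 1 neighbouring genes. The ELR fold was 1.47 to 1.59. The cause of these changes was not tested.

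Libraries with the same replicate number did not visibly deviate together (correlations -0.029, 0.075 and -0.094 for numbers 1, 2 and 3). Libraries with unlike numbers had correlations of -0.125 to 0.139. With 3 libraries per group a weak pairing could be missed, and the labels do not say whether the numbers pair the libraries. With the replicate block 80 genes were past the threshold, among them 1 of the 8 chemokine genes, 1 protease and 0 inflammatory receptors and kinases.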
